A study of Danio rerio with 6 samples.

Results

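The transcript row of *zgc:92590* (RefSeq NM_001007054), 1 of 16134 rows in the count table, was described in guts of wild-type (WT) zebrafish larvae after injection of rzIl26, a recombinant form of the zebrafish cytokine IL-26, or of BSA, an albumin from bovine serum. The row was chosen from its measured values, because its level after rzIl26 was about 10 times that after BSA and its BSA replicates lay close together. The difference between the groups is therefore given as a description, with no test, and supports nothing by itself. All larvae were WT and 5 days post fertilization (dpf). They received rzIl26, or BSA as the control protein, in the gut and swim bladder, and guts were dissected 1 h later. Each group held 3 libraries, each from a pool of 10 to 15 guts, so a value is the mean of a pool and covers every cell type dissected with the gut. In such bulk samples, fewer cells of a type and less RNA per cell cannot be told apart.

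IL-26 is a cytokine of the IL-10 family. It binds a receptor made of IL-20RA and IL-10RB and acts through JAK kinases and STAT transcription factors, with suppressors of cytokine signaling (SOCS) among the targets that limit the response. In humans it is produced mainly by lymphocytes, and its receptor is found on epithelial cells. The prefix zgc marks genes first catalogued as cDNA clones of the Zebrafish Gene Collection. The gene has kept this provisional name, and no function of its protein is stated in the sources used here. The RefSeq gene table of the GRCz12tu assembly lists it as protein coding with 4 transcripts, 3 of them predicted, and the count table held 1 row for the gene. Reads of the other transcripts may have been counted in that row or not at all, since the counting rule is not given in the sources used here.

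The libraries held between 15156164 and 22219894 counts. Of the 16134 rows 10576 had enough counts to be tested, and edgeR's quasi-likelihood test with Benjamini-Hochberg adjustment called 980 of them higher (9.27%) and 1015 lower (9.6%) after rzIl26. P-values measure the spread between these pooled libraries. The gut markers *cdh17* (1289 and 1376 CPM after BSA and rzIl26) and *vil1* (3088 and 3190 CPM) were abundant, where CPM is the count per 1000000 counts of the library, scaled by edgeR's TMM factors, while the intestinal fatty acid binding protein gene *fabp2* lay near 1 CPM in its counted transcript. The transcript of the cytokine itself, *il26*, had 0, 4 and 0 counts after BSA and 1, 2 and 21 after rzIl26, too few to be tested. The receptor gene *il20ra* differed by −0.37 on the log2 scale (SE 0.11, edgeR's quasi-likelihood test with Benjamini-Hochberg adjustment, adjusted p = 0.061), and it was called lower by DESeq2 (adjusted p = 0.0403).

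The *zgc:92590* row held 70, 56 and 70 counts in BSA replicates 1, 2 and 3. It held 469, 781 and 840 counts in rzIl26 replicates 1, 2 and 3. Every rzIl26 library thus had more counts than the 196 that the BSA libraries held together, against 2090 in the rzIl26 libraries together. Scaled by library, the level was 3.64, 3.72 and 3.61 CPM after BSA. It was 28.9, 33.5 and 45.7 CPM after rzIl26. The groups did not overlap, which 39.6% of all tested rows also showed.

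The mean level of *zgc:92590* in the BSA libraries was 3.66 ± 0.054 CPM (SD, n = 3). In the rzIl26 libraries it was 36.0 ± 8.65 CPM (SD, n = 3), which is 32.4 CPM more. The ratio of the means was 9.85, and edgeR gave a log2 fold change of 3.30 (SE 0.19, derived from its F statistic). The fold differed between pairs of libraries. The lowest rzIl26 library stood 7.78 times above the highest BSA library, and the highest rzIl26 library 12.6 times above the lowest BSA library. Relative to the BSA mean, rzIl26 replicates 1, 2 and 3 were at 7.91, 9.16 and 12.5 times.

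The replicates of *zgc:92590* lay much closer together after BSA than after rzIl26. The highest BSA library exceeded the lowest by a factor of 1.03, whereas the factor was 1.58 after rzIl26. The coefficient of variation (CV) was 1.47% after BSA, less than the 12.5% that counting error alone would give at these counts. After rzIl26 it was 24%, against 3.83% from counting alone. Exact Poisson 95% intervals, which cover counting error only, ran from 2.84 to 4.60, from 2.81 to 4.83 and from 2.82 to 4.56 CPM in BSA replicates 1, 2 and 3. The intervals of the BSA libraries were thus far wider than the distances between their values, and the close agreement of those 3 values is tighter than their depth can resolve. After rzIl26 the intervals were 26.4 to 31.7, 31.2 to 35.9 and 42.6 to 48.9 CPM, so rzIl26 replicate 3 lay above the other rzIl26 libraries by more than counting error.

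**Figure D1:**
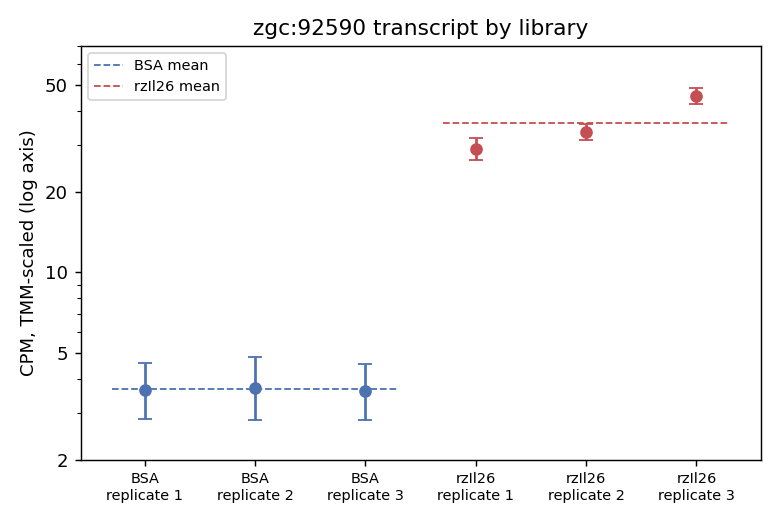
Level of *zgc:92590* in each library (CPM, with a bar for the exact Poisson 95% interval) and the mean of each group. The BSA libraries sit between 3.61 and 3.72 CPM and the rzIl26 libraries between 28.9 and 45.7 CPM, with no overlap.

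The gene stood near the top of the whole comparison. Its log2 fold change of 3.30 ranked 5 of 10576 rows, and 8 rows reached 3 or more, whereas the median absolute value over all rows was 0.26. Its SE of 0.19 was the smallest among the 11 rows with the highest log2 fold change, whose other SEs ran from 0.34 to 0.94. This small SE belongs to the same contrast that the gene was chosen on.

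Just above *zgc:92590* among the called rows were *rln3a*, which encodes a relaxin-family hormone (log2 fold change 3.76, SE 0.82), *and3*, which encodes an actinodin of the fin fold fibers (3.61, SE 0.62), and *noxo1a*, whose human counterpart organizes the epithelial NADPH oxidase NOX1 (3.48, SE 0.44). Their adjusted p-values were 0.022, 0.012 and 0.0056 (edgeR's quasi-likelihood test with Benjamini-Hochberg adjustment). The first rank belonged to *and2*, another actinodin gene, at 4.20. The level of *noxo1a* was 5.78, 13.2 and 4.18 CPM after BSA and 63.3, 76.8 and 115 CPM after rzIl26. Like *zgc:92590*, it was highest in rzIl26 replicate 3, but its BSA libraries had a CV of 62.4%. The *zgc:92590* row had been chosen partly for its close BSA libraries.

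Just below it were *alox5b.3*, a gene of the arachidonate lipoxygenase family (3.13, SE 0.76), *itln3*, which encodes an intelectin, a lectin of mucosal surfaces (3.13, SE 0.90), and *il17c*, which encodes an epithelial cytokine of the IL-17 family (3.06, SE 0.61). Their adjusted p-values were 0.029, 0.0497 and 0.017. The *itln3* row is the plainest contrast to *zgc:92590*, with 2.39, 25.5 and 6.45 CPM after BSA and 27.1, 138 and 129 CPM after rzIl26. Its fold was like that of *zgc:92590*, but its lowest rzIl26 library barely exceeded its highest BSA library. Without BSA replicate 1 or 3, or without rzIl26 replicate 2 or 3, *itln3* was no longer called (adjusted p = 0.111, 0.15, 0.127 and 0.11). The calls were also lost for *rln3a* without BSA replicate 1 or 2 or rzIl26 replicate 2 (adjusted p of 0.0537 to 0.0781), for *alox5b.3* without any library except rzIl26 replicate 1 (0.0594 to 0.104), and for *il17c* without BSA replicate 1 (0.0653). With limma-voom *rln3a* and *alox5b.3* were not called (0.0895 and 0.119), and *itln3* was not called with RLE factors (0.0502) or with pancreatic content as a covariate (0.0977).

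**Figure D2:**
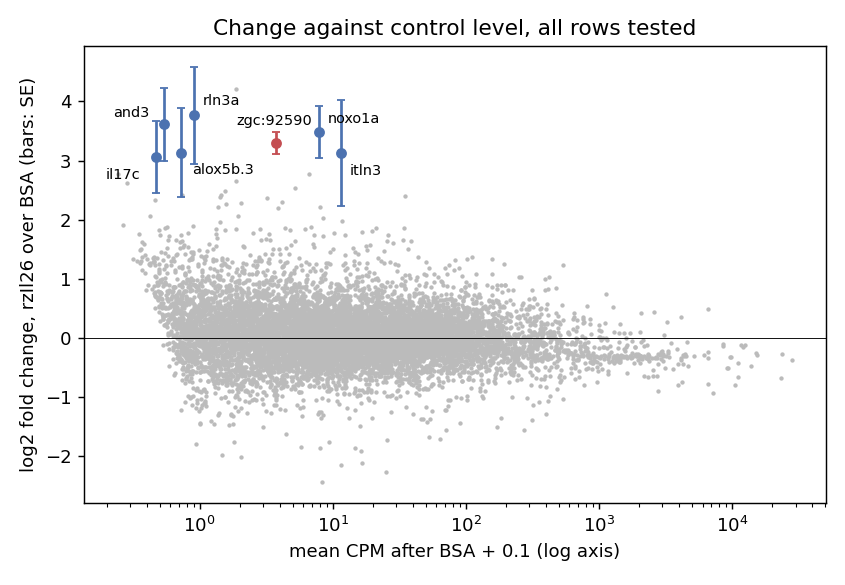
Log2 fold change (rzIl26 over BSA) of every tested row against its mean BSA level (CPM + 0.1, log axis), with *zgc:92590* and its neighbors in rank marked and bars for 1 SE. The *zgc:92590* row lies at 3.30 with the shortest bar among the marked rows at that height.

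Rows with a similar starting level had smaller log2 fold changes than *zgc:92590*. As the row was chosen for its fold and its close BSA replicates, its place among them is a description only. Among 1402 tested rows whose BSA mean lay within a factor of 1.5 of that of *zgc:92590*, 111 were called higher (7.92%) and 45 lower (3.21%). The largest log2 fold change among these rows was 2.54, 4 of them reached 2, and the median absolute value was 0.31. The BSA replicates of these rows had a median CV of 15.1%, and 7 rows had a smaller CV than *zgc:92590*. After rzIl26 the order was the opposite. Of 1664 rows with a similar rzIl26 mean, 1545 had a smaller CV than *zgc:92590*, and their median CV was 8.27%. The dispersion that edgeR assigned to the row gave a biological coefficient of variation of 0.164, beside a common value of 0.163. As edgeR draws this value toward that of the other rows, it says little about the row's own spread.

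Genes with the same kind of provisional name did not move as a class. Of 382 tested zgc rows, 19 were called higher (4.97%) and 34 lower (8.9%), beside 9.27% and 9.6% of all tested rows. Their median log2 fold change was −0.10. The 19 include *zgc:92590* itself. The row of *zgc:92590* was the highest of them, followed by *zgc:100868* at 2.02 (SE 0.23). In all, 8 zgc rows, *zgc:92590* among them, were called with a log2 fold change of at least 1.

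The genes around *zgc:92590* on its chromosome were then examined, as position had not been used to choose it. Gene order was taken from the RefSeq gene table of GRCz12tu, and no coordinates are given because the counts were made on danRer11. The nearest 5 genes with a row on each side were compared. The genes directly beside *zgc:92590* have no row and were not analysed here. On 1 side, outward from *zgc:92590*, lay *zgc:66448*, the trypsin gene *prss1*, the zinc finger gene *znf1035*, *si:dkeyp-84f3.5* and the hyaluronan synthase gene *has1*. On the other side lay the zinc finger gene *znf576.2*, *hcst* and *tyrobp*, whose mammalian counterparts encode the signaling adaptors DAP10 and DAP12 of leukocyte receptors, *lratd2b*, and *fbxo32*, which encodes an F-box protein linked to muscle wasting in mammals.

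None of the 10 neighbors was called higher, and 1 was called lower, in edgeR's quasi-likelihood test with Benjamini-Hochberg adjustment, beside 9.27% and 9.6% of all tested rows. At an unadjusted p under 0.05 there were 1 higher and 2 lower among the neighbors, near the 34.9% of all tested rows that passed it, and neither DESeq2 nor limma-voom called a neighbor higher. The median log2 fold change of the neighbors was −0.04, and the highest was 1.46 (SE 0.60, adjusted p = 0.13) for *has1*. Of the nearest row on each side, *zgc:66448* was not called and *znf576.2* was the row called lower. The levels of *zgc:66448* were 10.0, 11.5 and 11.4 CPM after BSA and 8.88, 8.97 and 12.1 CPM after rzIl26, with overlap between the groups (log2 fold change −0.14, SE 0.15, adjusted p = 0.57).

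The neighbor called lower was *znf576.2*, with 23.6, 23.8 and 27 CPM after BSA and 18.3, 17.1 and 20.8 CPM after rzIl26. On the log2 scale it fell by 0.41 (SE 0.11, edgeR's quasi-likelihood test with Benjamini-Hochberg adjustment, adjusted p = 0.038). The groups did not overlap, but the call was lost without any 1 library other than rzIl26 replicate 3 (adjusted p of 0.0757 to 0.116). The adaptor gene *tyrobp* had 3.12, 3.25 and 4.34 CPM after BSA and 2.84, 1.24 and 1.74 CPM after rzIl26, which gave −0.91 on the log2 scale (SE 0.31, adjusted p = 0.084). It was called lower without rzIl26 replicate 1 (log2 fold change −1.27, adjusted p = 0.0263). With pancreatic content as a covariate *tyrobp* was called lower (−1.06, adjusted p = 0.035) and *znf576.2* was not (0.0609).

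**Figure D3:**
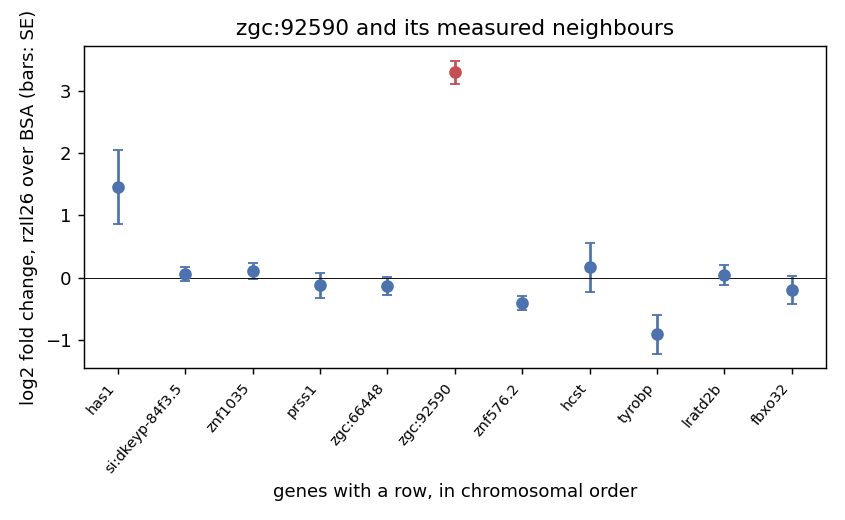
Log2 fold change (rzIl26 over BSA, bars for 1 SE) of *zgc:92590* and of the nearest 5 genes with a row on each side, in gene order, with equal spacing. The *zgc:92590* row stands at 3.30 and the neighbors between −0.91 and 1.46.

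The trypsin gene *prss1* was compared with *zgc:92590* in more detail, since 4 annotated genes separate them and it marks the exocrine pancreas, which lies along the gut. Its level was 13986, 10483 and 10795 CPM after BSA and 7518, 12962 and 11842 CPM after rzIl26. The groups overlapped, and the log2 fold change was −0.13 (SE 0.21, edgeR's quasi-likelihood test with Benjamini-Hochberg adjustment, adjusted p = 0.71). The rzIl26 library that was lowest for *prss1*, replicate 1, was also the lowest of the 3 for *zgc:92590*. The highest was replicate 2 for *prss1* but replicate 3 for *zgc:92590*. Among the BSA libraries *prss1* ran from 0.89 to 1.19 times its BSA mean, whereas *zgc:92590*, chosen partly for its close BSA replicates, ran from 0.99 to 1.02 times.

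Further trypsin genes were also not called. The levels of *prss59.1* were 10619, 7506 and 7629 CPM after BSA and 5409, 9947 and 8668 CPM after rzIl26 (log2 fold change −0.10, SE 0.23, adjusted p = 0.79). Those of *prss59.2* were 14516, 10760 and 11050 CPM after BSA and 7498, 13521 and 11734 CPM after rzIl26 (−0.15, SE 0.22, adjusted p = 0.67). Near-identical copies can share reads, so values of single trypsin genes are uncertain. Of 26 tested genes of exocrine pancreas enzymes, 0 were called in either direction by edgeR, by DESeq2 and by limma-voom, compared with 18.9% of all tested rows called by edgeR. At an unadjusted p under 0.05 there were 0 higher and 1 lower, compared with 34.9% of all rows. Their median log2 fold change was −0.06, with a range from −0.56 to 0.41, beside 0.01 over all rows.

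The pancreatic content of the pools varied between libraries of both groups. The summed level of the pancreatic list ran from 63545 to 86164 CPM after BSA and from 45833 to 79696 CPM after rzIl26, with overlap (two-sided exact permutation test, p = 0.7, adjusted p = 0.8 over 5 marker sums). Of the rzIl26 libraries, replicate 1 had the lowest pancreatic sum and the lowest level of *zgc:92590*. The pancreatic sum was highest in replicate 2, however, and *zgc:92590* in replicate 3. Replicate 1 also had the lowest liver, skeletal muscle and epidermal sums of the rzIl26 libraries. The permutation test cannot give a p-value under 0.1 with 3 libraries against 3. With pancreatic content as a covariate, the log2 fold change of *zgc:92590* was 3.33.

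**Figure D4:**
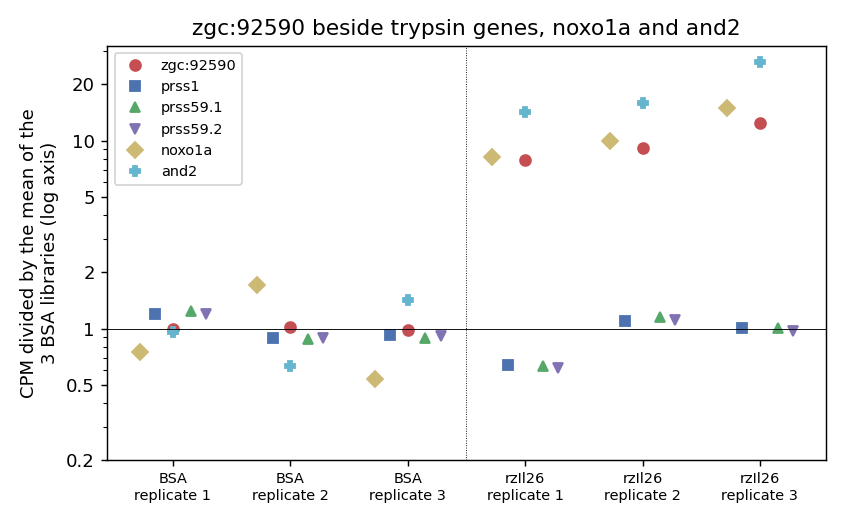
Level of *zgc:92590*, of 3 trypsin genes, of *noxo1a* and of *and2* in each library, as a multiple of the row's own BSA mean (log axis). The *zgc:92590* points lie at 0.99 to 1.02 after BSA and at 7.91 to 12.5 after rzIl26, while *prss1* stays between 0.64 and 1.19.

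Lists of genes for the response to a cytokine and for proteolysis were set beside *zgc:92590*. These lists and those of cell and tissue markers were chosen with earlier results of these data known. Their counts of calls are therefore a description and no independent evidence. Of 228 list rows, each counted once, 3 had a higher log2 fold change than *zgc:92590*, namely *and2*, *and3* and *noxo1a*. Of the genes of NF-kB inflammation, 15 of 21 tested were called higher, compared with 9.27% of all tested rows. The median of the 21 was 1.57 on the log2 scale. The called genes included the neutrophil growth factor gene *csf3b* (2.39), the cytokine gene *il1b* (2.21) and the matrix metalloproteinase gene *mmp9* (1.57). The count was 8 without BSA replicate 1 or 3, and 9 and 10 without rzIl26 replicates 2 and 3.

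The change of *zgc:92590* was larger than that of every tested gene in the NF-kB list, whose highest value was 2.39, but *il1b* was far more even after rzIl26. Its level was 6.66, 12.0 and 5.01 CPM after BSA and 36.5, 35.7 and 36.2 CPM after rzIl26. The *il1b* replicates thus varied after BSA and agreed after rzIl26, the opposite of *zgc:92590*. Both the size of its change and its close BSA replicates were grounds for choosing *zgc:92590*, so these contrasts are a description only.

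On the list of JAK-STAT signaling 10 of 19 tested genes were called higher, compared with 9.27% of all tested rows. Beside targets, this list holds the kinase genes *jak1*, *jak2a* and *jak2b*, which were not called, and the receptor chain gene *il6st*, which was called higher. The median log2 fold change of the 19 was 0.55. The called genes included *junba* (1.33), the feedback inhibitor gene *socs3a* (1.25) and the transcription factor gene *stat3* (0.69). The level of *socs3a* was 182, 219 and 176 CPM after BSA and 509, 505 and 359 CPM after rzIl26. It was lowest in rzIl26 replicate 3, where *zgc:92590* was highest. Without BSA replicate 1 or 3 or rzIl26 replicate 2, the count of the list was 4, 5 and 5.

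Of 22 tested genes of gut defence and the acute phase, 6 were called higher and 1 lower, beside 9.27% and 9.6% of all rows. The median log2 fold change of the 22 was 0.96. The acute phase gene *saa* (1.83) and the oxidase gene *nox1* (1.84) had the next lowest adjusted p-values in this list after *noxo1a*, while *alox5b.3*, *itln3* and *il17c* were the next highest by log2 fold change. The count of higher calls was 3 without BSA replicate 1, 4 without BSA replicate 3 or rzIl26 replicate 2 or 3, and 9 without rzIl26 replicate 1, and the lower call was lost without BSA replicate 1. Some of these genes were put on the list with their change in these libraries known, so the count is no independent evidence of its direction.

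Of 24 tested protease inhibitor genes, 2 were called higher and 2 lower, near the 9.27% and 9.6% of all rows, with a median of 0.34. The serpin gene *serpine2* rose (0.76, SE 0.13), whereas the Kazal-type inhibitor gene *spink2.1* (−0.84) and the serpin gene *serpinb1l3* (−0.39) fell. The count of higher calls was 0 without BSA replicate 1 and 1 without BSA replicate 3 or rzIl26 replicate 2, and *serpine2* lost its call in 1 of those fits.

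Of 13 tested genes on the list of protease-activated receptors and coagulation, 5 were called higher, beside 9.27% of all rows. The median log2 fold change of the 13 was 0.45. These included the urokinase gene *plaua* (2.62) and the tissue factor genes *f3b* (1.35) and *f3a* (0.95). The other called genes were *tmprss13a* (1.83) and *tmprss2* (0.70). The receptor genes *f2r*, *f2rl1.1* and *f2rl1.2* were not called (adjusted p = 0.069, 0.18 and 0.27, edgeR's quasi-likelihood test with Benjamini-Hochberg adjustment). The *plaua* row held only 5, 2 and 3 counts after BSA, and DESeq2 gave it no adjusted p. The number of higher calls was 2 without BSA replicate 1 or rzIl26 replicate 2 and 3 without BSA replicate 3. No tested gene of either protease list had a log2 fold change as high as that of *zgc:92590*.

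**Figure D5:**
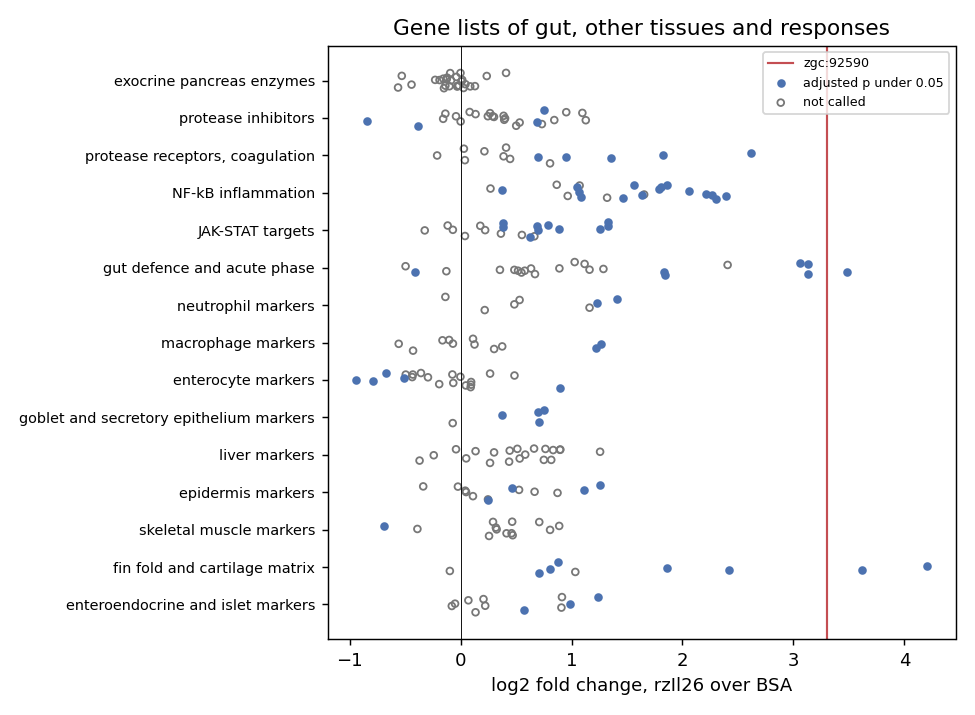
Log2 fold change (rzIl26 over BSA) of each tested gene in the 15 lists, with a line at the value of *zgc:92590*. Above the line at 3.30 lie *and2*, *and3* and *noxo1a*, and the pancreatic enzymes lie between −0.56 and 0.41.

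Markers of the cells that a gut pool can hold were read beside the rise of *zgc:92590*, and their part in it was not tested unless a value is given. No difference in liver genes was called by edgeR. Of 20 tested liver genes 0 were called by edgeR and by limma-voom and 1 higher by DESeq2 (at an unadjusted p under 0.05, 2 higher and 1 lower, compared with 34.9% of all rows). Their median log2 fold change was 0.52, with 17 above 0. Their summed level, most of it from the apolipoprotein gene *apobb.1* (−0.37, SE 0.15, not called), was 29056 to 45089 CPM after BSA and 29865 to 37770 CPM after rzIl26. These sums overlapped (p = 0.7 in a two-sided exact permutation test, adjusted p = 0.8). As *apobb.1* makes up most of the sum, the test says little about the other liver genes. Of those, *fabp10a* varied widely within both groups. Its level was 415, 1525 and 490 CPM after BSA and 272, 1710.5 and 1532 CPM after rzIl26 (log2 fold change 0.53, SE 0.72, not called). With liver content as a covariate, the log2 fold change of *zgc:92590* was 3.18.

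A few leukocyte genes were higher after rzIl26, from low levels. Of 7 tested neutrophil genes 2 were called higher, *scpp8* (1.41) and *adam8a* (1.23), beside 9.27% of all rows. Without *cpa5*, which the pancreas also expresses, the summed level of the list ran from 187 to 272 CPM after BSA. After rzIl26 that sum ran from 309 to 401 CPM. Most of it came from *pnp5a*, which was not called (179, 233 and 157 CPM after BSA and 259, 317 and 246 CPM after rzIl26). With *cpa5* the groups overlapped (p = 0.8, two-sided exact permutation test, adjusted p = 0.8). The myeloperoxidase gene *mpx* had too few counts to be tested.

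Of 11 tested macrophage genes 2 were called higher, *mpeg1.2* (1.27) and *irf8* (1.22), beside 9.27% of all rows. Among the 11, 6 lay above 0, and the median log2 fold change was 0.11. The sums were 138 to 162 CPM after BSA and 166 to 216 CPM after rzIl26 (p = 0.1 in a two-sided exact permutation test, adjusted p = 0.25). Most of these sums came from *grna.1*, which was not called (means of 94.1 CPM after BSA and 122 CPM after rzIl26). The defining markers *mpeg1.1*, *c1qa*, *c1qb* and *c1qc* were at 0 in every library. The count was 0 without BSA replicate 1 or 3 and 1 without rzIl26 replicate 1 or 2, and *mpeg1.2* lost its call without any 1 library except BSA replicate 2 (adjusted p of 0.0665 to 0.132).

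Epithelial markers were called in both directions, beside 9.27% of all tested rows called higher and 9.6% called lower. Of 20 tested enterocyte genes 1 was called higher and 4 lower. The genes called lower included the apolipoprotein gene *apoa4b.2* (−0.94), the fatty acid binding protein gene *fabp1b.1* (−0.79) and the chitinase gene *chia.2* (−0.68). The sums of the list were 69342 to 75732 CPM after BSA and 54902 to 60814 CPM after rzIl26. Much of the difference lay in genes called lower, such as *chia.2* (means of 23421 and 14662 CPM). The other 15 genes were not called, *vil1* and *cdh17* among them. Without rzIl26 replicate 1 there were 7 lower, and the higher call was lost without BSA replicate 2 or 3 or rzIl26 replicate 2. Of 5 tested goblet and secretory genes 4 were called higher, such as the chloride channel gene *cftr* (0.71). Their sums were 1148 to 1262 and 1310 to 1508 CPM, and the count was 2 without BSA replicate 1 or 3. Only 5 of the 16 genes on that list had a row, and goblet genes such as *muc2.1*, *muc5.1* and *spdef* had none. The tested mucin gene *muc13b*, with means of 677 and 645 CPM, was not called (log2 fold change −0.07). Of 11 tested enteroendocrine and islet genes 3 were called higher, with sums of 164 to 189 and 195 to 282 CPM, and *ins*, *scg3* and *scgn* were at 0. That count was 1 without any BSA library or without rzIl26 replicate 2.

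Lists for tissues that border the gut were read too, and their counts stand beside 9.27% of all tested rows called higher and 9.6% called lower. Of 13 tested epidermal genes 4 were called higher, with sums of 1940 to 2232 CPM after BSA and 2327 to 2636 CPM after rzIl26 (p = 0.1 in a two-sided exact permutation test, adjusted p = 0.25). The count was 1 without BSA replicate 1 and 2 without any other library except rzIl26 replicate 1. Much of the epidermal sum came from *krt4* (means of 1116 and 1322 CPM), and *krt5* and *cldni* had too few counts to be tested. Of 13 tested skeletal muscle genes 1 was called lower, with overlapping sums of 1557 to 2482 and 1718 to 3677 CPM, and that call was lost without any 1 library except rzIl26 replicate 2, while 4 were called higher without rzIl26 replicate 1. Genes of the fin fold and cartilage matrix were called higher in 7 of 9 tested, with sums of 51.9 to 69.0 and 128 to 189 CPM. This list too was chosen with earlier results known, so its count is a description only. They included *and2* (4.20), *and3* (3.61) and *matn4* (2.42), while the cartilage collagen gene *col2a1a* was at 0. On the same list *col9a1a*, *col9a1b*, *col9a2*, *col9a3*, *col11a2*, *ucmab* and *tncb* had too few counts to be tested. The fin fold sum and *zgc:92590* were both highest in rzIl26 replicate 3. So were the sums for liver, epidermis, skeletal muscle, enterocytes, protease inhibitors and gut defence. Among the rzIl26 libraries the fin fold sum was lowest in replicate 2 (128 CPM), whereas *zgc:92590* was lowest in replicate 1. A part of the bordering tissues in the rise of *zgc:92590* was not tested.

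The rows that followed *zgc:92590* most closely across the 6 libraries were sought among the 10575 other tested rows by Pearson's r of log2(CPM + 1). As the libraries fall into 2 groups of 3, r follows the group difference and is given as a description. It exceeded 0.99 in 12 rows and 0.95 in 290 rows. The closest were *lama4*, which encodes a laminin chain of basement membranes (r = 0.998), *ago3b*, an Argonaute gene of small RNA silencing (0.995), *fubp3*, which encodes a nucleic acid binding protein (0.994), *mala.2* (0.992), *and2* (0.992) and *sec24c*, which encodes a coat protein of vesicles leaving the endoplasmic reticulum (0.992).

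These rows had a high r with *zgc:92590* but a smaller change, except for *and2*. The level of *lama4* was 73.6, 73.6 and 74.9 CPM after BSA and 95.9, 100.2 and 105 CPM after rzIl26, a log2 fold change of 0.44 (SE 0.07). That of *mala.2* was 2.55, 3.05 and 2.58 CPM after BSA and 7.96, 8.92 and 12.3 CPM after rzIl26, a log2 fold change of 1.84 (SE 0.20). The BSA libraries of *lama4* were close, with a CV of 1.07% beside 1.47% for *zgc:92590*, while those of *mala.2* spread more (10.3%). Both rows were ordered like *zgc:92590* after rzIl26, lowest in replicate 1 and highest in replicate 3. Deviations from the group means correlated with those of *zgc:92590* at r = 0.95 for each (6 libraries). This r rests mainly on the rzIl26 libraries, as the log2 SD of *zgc:92590* was 0.021 after BSA and 0.34 after rzIl26. Both rows were also picked for their closeness over these same libraries, so the value is a description only. The levels of *and2* were 1.72, 1.13 and 2.53 CPM after BSA and 25.5, 28.4 and 47.2 CPM after rzIl26, and its deviations correlated less (r = 0.74). Its BSA libraries were not close (CV 39.2%). The log2 fold change was 1.29 for *ago3b*, 0.47 for *sec24c* and 0.24 for *fubp3*, and the call of *fubp3* (adjusted p = 0.047, edgeR's quasi-likelihood test with Benjamini-Hochberg adjustment) was lost when any 1 library was left out (0.0703 to 0.129).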

How the data were processed

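RNA was sequenced from pooled guts of WT larvae, 3 libraries per group. Per the labels and the study's methods, stranded poly(A) libraries were sequenced as paired-end reads and aligned to danRer11. The authors deposited raw counts per RefSeq transcript in 1 table. The counting tool, strand setting and treatment of shared reads are not given in the sources used here, so counts of near-identical or overlapping genes are uncertain. Columns were matched to libraries by the library names in the labels. Symbols came from the RefSeq gene table of GRCz12tu, which matched 15776 of 16134 rows. In 2701 rows every library had 0 counts. Totals were 15156164 to 22219894 counts, which sets the Poisson intervals.

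Counts were fitted in R 4.3.3 with edgeR 4.0.16 (filterByExpr, minimum count 10, TMM factors of 0.92 to 1.07, quasi-likelihood test, model with group only). The SE printed with a log2 fold change was derived as its absolute value divided by the square root of the test's F statistic. Benjamini-Hochberg adjustment covered all 10576 tested rows, and an adjusted p under 0.05 was called. Sums of markers were compared on the log2 scale by two-sided exact permutation tests, adjusted over 5 sums (exocrine pancreas, liver, epidermis, neutrophils and macrophages). Patterns used a pseudocount of 1.

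The gene, the 15 lists (351 genes, 290 with a row) and the tests were chosen with earlier results of these data known. Named genes were *zgc:92590*, its neighbors in gene order, the 3 called rows above and below it by log2 fold change, the 6 rows with the closest pattern, up to 3 called genes of each list, those of lowest adjusted p, *il26* and *il20ra*. Others (*prss59.1*, *prss59.2*, *cdh17*, *vil1*, *fabp2*, *fabp10a*, *zgc:100868*, *apobb.1*, *pnp5a*, *grna.1*, *tmprss2*, *tmprss13a*, *f2r*, *f2rl1.1*, *f2rl1.2*, *jak1*, *jak2a*, *jak2b*, *il6st*, *muc13b*, *krt4* and markers at 0, with too few counts or without a row) were added as checks or after their values were seen. A search for related proteins was planned and not run, since no protein sequences were used here, and levels were not compared between genes for want of transcript lengths.

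The alternatives tried were DESeq2 1.42.0 and limma-voom (limma 3.58.1), scaling by RLE, by upper quartiles or by totals alone, dropping the filter or asking for 10 counts in each library, the replicate number as a block, liver or pancreatic content as a covariate, leaving out each library, and for patterns pseudocounts of 0.25 and 4 or Spearman's rho. On counts simulated for this comparison (10487 rows), the fit recovered 128 of 195 changed rows (65.6%) and called 8 unchanged rows.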

Additional observations from a re-analysis of the deposited data

How the results depend on the processing

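The log2 fold change of *zgc:92590* stayed within the spread of its replicates under all 16 alternatives. It ran from 3.09 (without rzIl26 replicate 3) to 3.43 with 1 library left out and from 3.18 to 3.46 otherwise. The BSA counts of 56 to 70 limit its precision.

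Library totals alone moved the median of all rows from 0.01 to 0.17 on the log2 scale and gave 1782 rows higher and 401 lower, so calls of small changes depend on scaling. With 1 library left out, 339 to 875 rows were higher and 398 to 940 lower, fewest in both directions without BSA replicate 1. Without BSA replicates 2 and 3 and rzIl26 replicate 2 the counts were 481, 453 and 404 higher and 502, 525 and 420 lower.

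Under library totals alone the higher calls numbered 4 for protease inhibitors, 4 for neutrophils, 2 for enterocytes, 2 for liver and 1 for muscle, and the lower calls 0 for the neighbors, gut defence and muscle. With pancreatic content as a covariate, higher calls numbered 1 for protease inhibitors, macrophages and muscle, and lower calls 2 for the pancreas and 0 for muscle. With liver content, higher calls for protease inhibitors numbered 1, and lower calls 3 for liver, 2 for muscle and 0 for the neighbors. Each covariate was the mean log2 level of the tested genes of its own list. Calls of liver or pancreatic genes in the fit with their own covariate are therefore circular. DESeq2 gave 4 higher for neutrophils, 1 for liver and 1 for muscle. The JAK-STAT list had 1 lower call with upper-quartile factors, DESeq2 and limma-voom. At least 10 counts in every library left 3 higher calls for protease receptors and coagulation.

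The labels give replicate numbers but state no pairing of the libraries. Deviations of same-numbered libraries correlated at 0.309, 0.112 and 0.0077. Differently numbered libraries were not compared, so these values cannot settle whether the libraries were paired. With the replicate block *zgc:92590* was at 3.28, 883 rows were higher and 844 lower, and higher calls numbered 4 for protease inhibitors, 1 for macrophages, 1 for liver and 2 for muscle. With the block *il20ra* was called lower (adjusted p = 0.036), as with DESeq2 (0.0403). The call of *znf576.2* was also lost with library totals alone (0.173) and with liver content (0.0633).

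With 1 library left out, higher calls ran from 0 to 2 for protease inhibitors, 2 to 5 for protease receptors and coagulation and 8 to 16 for NF-kB. They ran from 4 to 10 for JAK-STAT, 3 to 9 for gut defence, 0 to 2 for macrophages and 2 to 3 for neutrophils. For enterocytes they ran from 0 to 1, for goblet and secretory genes from 2 to 4 and for epidermis from 1 to 3. For muscle they ran from 0 to 4, for fin fold from 5 to 8 and for enteroendocrine cells from 1 to 2. Lower calls ran from 0 to 1 for the neighbors, gut defence and muscle and from 4 to 7 for enterocytes.

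Signs that turned belonged to rows that were not called. Under library totals alone *prss1* was at 0.035, *zgc:66448* at 0.022, *prss59.1* at 0.062 and *prss59.2* at 0.012. With liver content *fabp10a*, itself a gene of that covariate, was at −0.25. With 1 library left out *prss1* ran from −0.28 to 0.077, *prss59.1* from −0.29 to 0.12, *prss59.2* from −0.33 to 0.060, *si:dkeyp-84f3.5* from −0.021 to 0.13, *hcst* from −0.10 to 0.46 and *lratd2b* from −0.13 to 0.15. Of the 6 rows with the closest pattern, 5 remained with either pseudocount, and 2 were among the 51 rows with a Spearman's rho of 1. Rows with proteins related to *zgc:92590* were not run.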
